A study of Mus musculus with 47 samples.

Results

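In all 8 genes of the hindbrain and spinal motor neuron programme were followed across mouse embryonic stem cells (ESC) and the neural progenitor cultures (NPC) made from them. They were taken as a fixed list of 8 of 35856 gene symbols: Phox2a, Isl1, Isl2, Lhx3, Lhx4, Mnx1, Tbx20 and the microRNA gene Mir218-2. Polyadenylated RNA was sequenced in 47 libraries of 16 groups. Each group had 3 replicates, stated to be biological, apart from the auxin-treated SUZ12 NPC with 2. All libraries came from C57BL/6 ESC with the genotype Tir1, the plant F-box protein through which auxin triggers destruction of proteins carrying an auxin-inducible degron (AID). The genotypes were untagged, SUZ12-AID, MTF2-AID and AID-JARID2, called the untagged, SUZ12, MTF2 and JARID2 lines here. Each was collected untreated and with 50 µM indole-3-acetic acid (auxin), given for 12 hours in ESC and for 5 days in NPC. ESC were held in serum-free medium with LIF (100 U/mL) and the inhibitors CHIR99021 (3 µM) and PD0325901 (1 µM). NPC received 10 ng/mL bFGF for 72 hours and afterwards SAG, an activator of Hedgehog signalling, at 500 nM for 48 hours before harvest. The labels do not say whether a line was 1 clone. For MTF2 and JARID2 NPC the titles give day 0, against NPC and 5 days in the source and treatment fields, and the fields were used.

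Motor neurons arise in the ventral hindbrain and spinal cord, where Sonic hedgehog patterns progenitors. Somatic motor neurons, which innervate skeletal muscle, use the LIM homeodomain factors Lhx3, Lhx4, Isl1 and Isl2 together with the homeodomain factor Mnx1 (HB9). Visceral and branchial motor neurons of the hindbrain instead use the homeodomain factor Phox2a, Isl1 and the T-box factor Tbx20. Isl1 therefore belongs to both groups. miR-218, made from Mir218-2 and Mir218-1, is a microRNA known for its abundance in motor neurons. SUZ12 is a core subunit of Polycomb repressive complex PRC2, a histone methyltransferase that marks silent developmental genes, and MTF2 and JARID2 are accessory subunits of alternative forms of that complex.

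The mature arms and the hairpin of Mir218-2 are shown because the microRNA gene had the most extreme values of the list. Sequences are from RefSeq on GRCm38.p6, 5′ to 3′. Capitals mark the seed, bases 2 to 8, in the mature arms, and the arms themselves in the hairpin at chr11:35616816-35616925 (+).
miR-218-5p: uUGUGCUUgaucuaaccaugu
miR-218-2-3p: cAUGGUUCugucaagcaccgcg
Mir218-2 hairpin: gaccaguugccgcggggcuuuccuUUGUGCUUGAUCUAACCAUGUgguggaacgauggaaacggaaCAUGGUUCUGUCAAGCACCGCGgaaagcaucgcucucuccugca
Mir218-1 in Slit2 yields the same 5p arm, so a mature miR-218-5p would not tell the genes apart. Among 1738 mature entries, 2 names carry this 5p seed, miR-218-5p and miR-7002-3p. The libraries hold polyadenylated RNA, in which the mature microRNA itself is not captured, so the values of Mir218-2 are for longer RNA that covers the hairpin. The hairpin lies on the plus strand in intron 14 of Slit3-201, a transcript of 36 exons of the axon guidance ligand gene Slit3, and overlaps no Slit3 exon in GENCODE. Reads from unspliced Slit3 RNA and from a separate Mir218-2 transcript cannot be told apart.

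Promoters are shown for the members with the largest fall without a group at 0 (Lhx4), the highest level (Isl1) and the only rise called with auxin in NPC (Mnx1). Each is the RefSeq window from 250 bases before to 50 after the gene start on GRCm38.p6, on the strand of the gene, with every CG dinucleotide in capitals.
Isl1, chr13:116309639-116309938 (-): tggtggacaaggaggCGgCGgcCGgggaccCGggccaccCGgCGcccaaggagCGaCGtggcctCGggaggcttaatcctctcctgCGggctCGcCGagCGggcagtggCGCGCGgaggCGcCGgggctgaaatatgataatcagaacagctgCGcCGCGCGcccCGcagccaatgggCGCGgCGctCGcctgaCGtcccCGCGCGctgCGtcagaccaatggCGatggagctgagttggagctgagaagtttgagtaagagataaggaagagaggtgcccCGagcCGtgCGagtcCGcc
Lhx4, chr1:155741978-155742277 (-): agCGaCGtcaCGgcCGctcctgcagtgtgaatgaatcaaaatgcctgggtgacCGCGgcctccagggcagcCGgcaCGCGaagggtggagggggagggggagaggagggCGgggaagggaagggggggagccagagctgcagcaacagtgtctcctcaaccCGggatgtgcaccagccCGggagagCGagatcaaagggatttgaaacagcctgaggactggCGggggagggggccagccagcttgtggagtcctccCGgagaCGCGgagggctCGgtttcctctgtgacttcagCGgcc
Mnx1, chr5:29478421-29478720 (-): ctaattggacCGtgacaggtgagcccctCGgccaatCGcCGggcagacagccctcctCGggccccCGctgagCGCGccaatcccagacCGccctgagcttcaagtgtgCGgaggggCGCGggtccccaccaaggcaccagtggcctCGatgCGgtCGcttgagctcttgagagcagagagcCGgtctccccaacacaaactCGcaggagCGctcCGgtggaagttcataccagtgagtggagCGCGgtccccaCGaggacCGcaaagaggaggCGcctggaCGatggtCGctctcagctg
CG-rich promoters are the kind at which Polycomb complexes are typically found in stem cells. These windows held 37, 19 and 26 CG dinucleotides for Isl1, Lhx4 and Mnx1, against a median of 7 and quartiles of 3 and 20 over 32851 promoters. A window was found for 7 members, 8 windows in all since Lhx3 had 2, and the others held 30 (Phox2a), 28 and 13 (Lhx3), 26 (Tbx20) and 23 (Isl2). The homeodomain core TAAT, on either strand, occurred 2 times in the Isl1 window and 1 time in the Mnx1 window and was not in the Lhx4 window, while 58% of all promoters hold it. The E-box CANNTG, which is its own reverse complement in pattern, occurred 3 times for Mnx1 and 1 time for Isl1 and was not in the Lhx4 window, while 72.3% of all promoters hold it. These matches describe letters in a window and are not evidence of binding.

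On GRCm38 (mm10), GENCODE M21 places Phox2a at chr7:101818313-101822726 (+), Isl1 at chr13:116298281-116309689 (-), Isl2 at chr9:55538672-55546180 (+) and Tbx20 at chr9:24718138-24774303 (-). Lhx3 lies at chr2:26200212-26208289 (-), Lhx4 at chr1:155698031-155751684 (-) and Mnx1 at chr5:29473034-29478470 (-). The promoter windows of Lhx4 and Isl2, and the Lhx3 window with 28 CG, lie inside these spans, away from the GENCODE start. Their CG, TAAT and CANNTG counts therefore hold for the RefSeq start only. Phox2a shares 95 bases with Inppl1, Isl2 1340 bases with Gm17226 and Lhx3 1588 bases with Gm27196, each on the opposite strand. The libraries were strand-specific, but whether counting used the strand is not given in the sources used here, so reads in these overlaps are uncertain.

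Levels are TPM as deposited, a unit scaled to gene length and to the library total, so the coding members can be compared with each other. Mir218-2 spans only 110 bases, so few reads give it a high TPM, and its level is not compared with theirs. Whole reads could be recovered from the TPM steps, giving 3.24 to 8.71 M reads per library (M, 1000000). The RNA of Suz12, Mtf2 and Jarid2 does not check the degradation, which acts on protein. Suz12 RNA averaged 36.9 TPM in untreated untagged NPC, 77.8 TPM in untreated SUZ12 NPC and 163 TPM with auxin there, so the SUZ12 line carried more Suz12 RNA. Tests are limma's on log2(TPM + 0.5) over all genes of a stage, two-sided, and called genes are those whose p after Benjamini-Hochberg adjustment is below 0.05. The percentage of all tested genes called is given beside the count of members as the background.

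In differentiation of the untagged line, most of the list came on. Between untreated untagged ESC and NPC, 7 of 8 members were called higher and 0 lower. Of all 17760 tested genes 76.1% were called, 8462 higher and 5055 lower. The members' median log2 difference was 4.93, and 0.28 over all genes. Isl1 rose from 1.08 to 164 TPM, Phox2a from 4.43 to 128 TPM, Tbx20 from 0.628 to 39.5 TPM and Lhx4 from 1 read in 3 ESC libraries to 32.1 TPM. The ratio of pooled levels was 151 for Isl1 (95% exact counting interval 97.7 to 248), 28.9 for Phox2a (21.9 to 39), 63.4 for Tbx20 (44.6 to 93.6) and 1322 for Lhx4 (237 to 52269, from that 1 read). Lhx3 (ratio 55.2, 15 to 461) and Isl2 (18.8, 7.08 to 70.5) rose from 2 and 4 reads. These intervals cover counting error only. Mir218-2 had 0 reads in all 24 ESC libraries, so its rise was at least 21.9-fold against a floor of 3 reads over the ESC group. Mnx1 did not pass the test, at 2.79 TPM in ESC and 4.71 TPM in NPC (log2 difference 0.65 ± 0.38 SE, adjusted p = 0.121; ratio 1.67, exact counting interval 1.05 to 2.71), but it was called higher in a fit to those groups alone (adjusted p = 0.0377). Isl2, Lhx3, Lhx4 and Mir218-2 passed the filter on low values only through NPC, so their calls say little beyond their presence there.

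The label was checked against these levels. In untreated untagged NPC the visceral pair led the list, with Isl1 at 164 and Phox2a at 128 TPM. Tbx20 followed at 39.5 TPM and Lhx4 at 32.1 TPM. Mir218-2 was listed at 81.5 TPM, but on 76 reads in the group against 2278 for Tbx20 and 1532 for Lhx4, so it was not ranked with them. Lhx3 at 6.11, Mnx1 at 4.71 and Isl2 at 2.82 TPM were the lowest, so the somatic factors other than Lhx4 and the shared Isl1 were present at low level. Chat, the acetylcholine synthesis enzyme of motor neurons, stood at 8.22 TPM and Slc18a3, the vesicular acetylcholine transporter, at 88 TPM. Markers of other neurons were present too, with the V2 interneuron genes summing to 59.4 to 61.4 TPM over 7 genes and sensory neuron genes to 20.6 to 24.2 TPM over 5. Noradrenergic genes summed to 13.4 to 14.9 TPM over 3 and serotonergic genes to 8.93 to 10.3 TPM over 4. V0, V1 and V3 interneuron genes summed to 8.14 to 10 TPM over 7. A mean of 1 TPM or more was reached by 6 of the 7 V2 genes and 4 of the 5 sensory genes. It was reached by 2 of the 3 noradrenergic genes and 4 of the 7 V0, V1 and V3 genes. Only 1 of the 4 serotonergic genes reached it, so that sum does not show the serotonergic list as a whole. Pancreatic Pdx1, Ins1, Ins2 and Gcg and the pituitary gene Pou1f1 were listed at 0 in all of these libraries. Their lists did not sum to 0, with 25.2 to 28.8 TPM over 7 endoderm and pancreas genes and 1.94 to 2.57 TPM over 5 pituitary genes. In each of those lists only 1 gene had a mean of 1 TPM or more, so the sums do not show the tissues. The 9 cardiac mesoderm genes summed to 10.7 to 13.6 TPM, with 2 genes at that mean. Bulk RNA does not show which cells carried a member, and fewer cells of a type and less RNA per cell cannot be told apart.

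**Figure D1:**
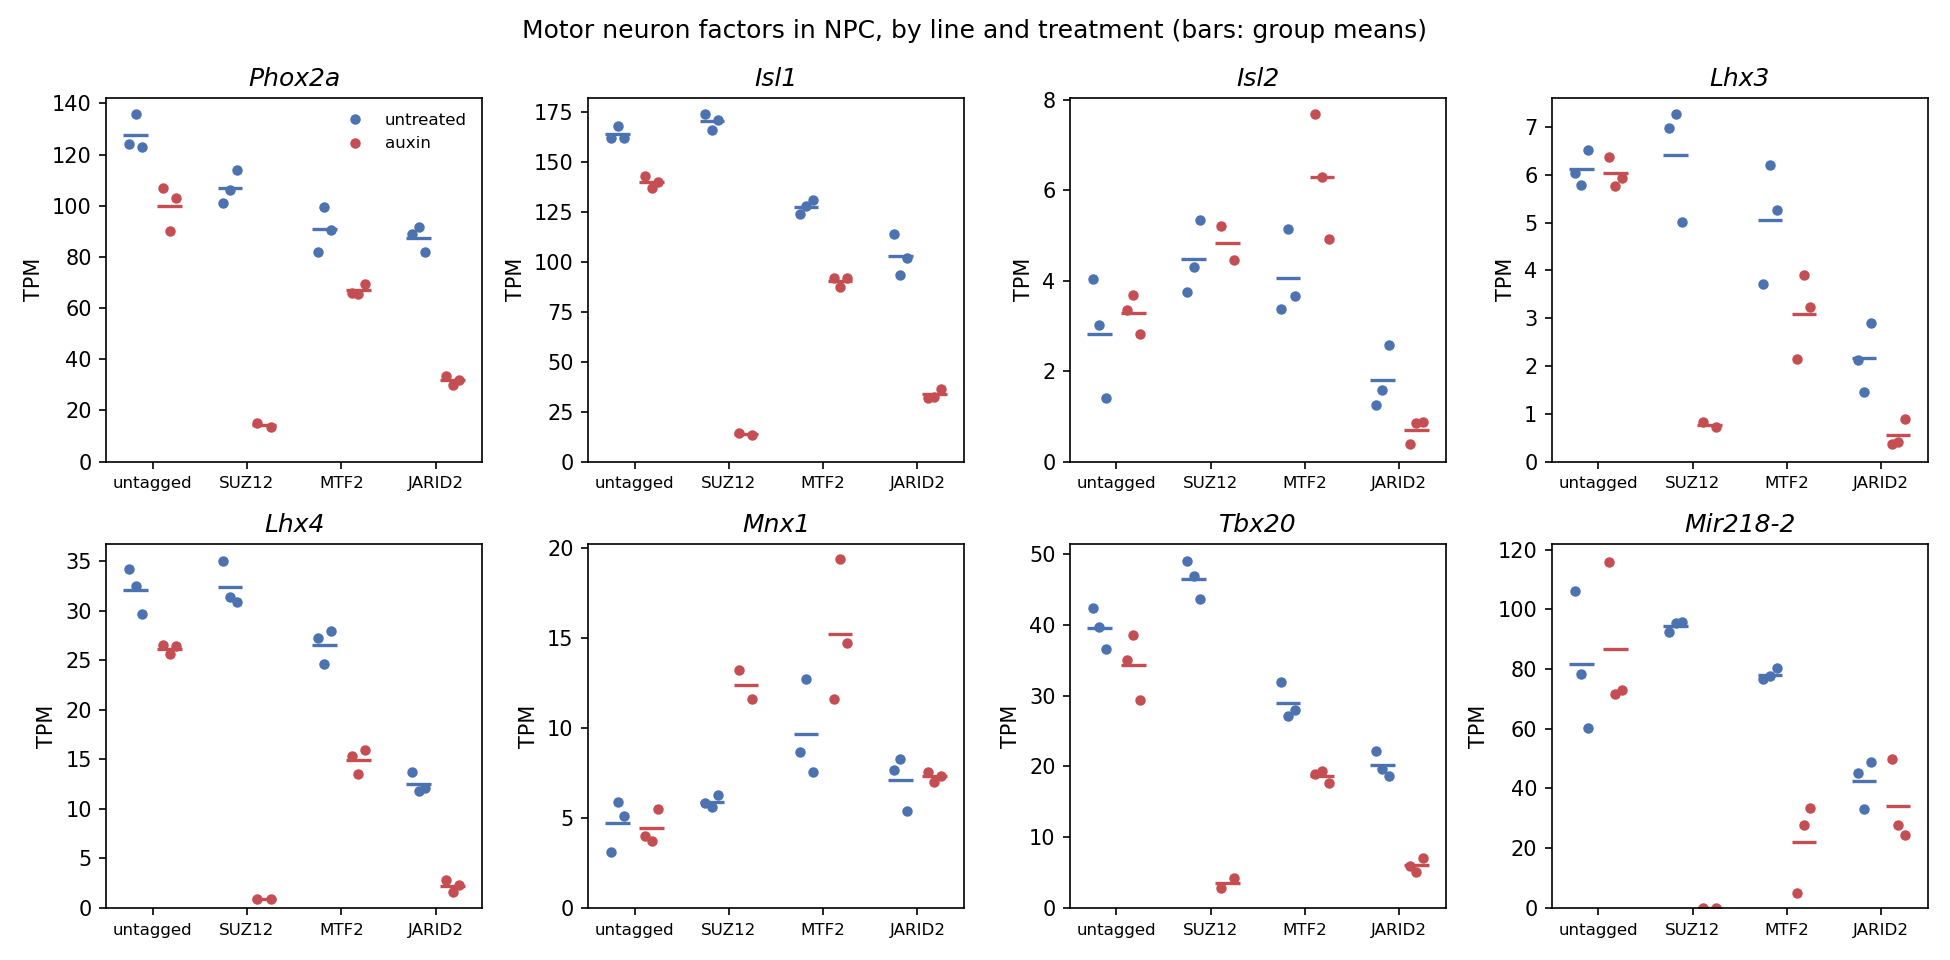
TPM of each member (vertical axis, a panel for each gene, axis from 0) in the 4 NPC line groups (horizontal axis), untreated in blue and with auxin in red. Points are libraries and bars are group means. In the SUZ12 line 6 of the 8 panels have auxin libraries far below the untreated ones, Mnx1 has them above and Isl2 overlaps.

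Auxin for 5 days in the SUZ12 line lowered 6 members and raised 1. Isl1, Phox2a, Tbx20, Lhx4, Lhx3 and Mir218-2 fell, Mnx1 rose and Isl2 did not pass the test, where 56.9% of tested genes were called. The members' median log2 difference was -3.21, and -0.10 over all genes.

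Among the visceral factors, Isl1 stood at 174, 166 and 171 TPM in the untreated SUZ12 NPC libraries and at 14.3 and 13.2 TPM with auxin. Those groups lie far apart, and the mean was 12.4-fold lower (log2 difference -3.59 ± 0.07 SE, adjusted p = 1.07e-19). Phox2a went from 101, 106 and 114 TPM to 15.3 and 13.6 TPM, 7.38-fold lower (-2.84 ± 0.09, adjusted p = 8.34e-17). Tbx20 went from 49.1, 46.9 and 43.7 TPM to 2.78 and 4.19 TPM, 13.4-fold lower (-3.58 ± 0.14, adjusted p = 6.43e-15).

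The somatic factors split into those that fell, one that rose and one that did not move detectably. Lhx4 went from 35.0, 31.4 and 30.9 TPM to 0.949 and 0.898 TPM, the largest fold of the coding members at 35.1-fold lower (-4.53 ± 0.13, adjusted p = 4.73e-17). Its relative Lhx3 went from 6.98, 7.26 and 5.01 TPM to 0.827 and 0.726 TPM, the auxin libraries holding 5 reads each (8.27-fold lower, -2.42 ± 0.26, adjusted p = 7.09e-08). Mnx1 moved the other way, from 5.81, 5.61 and 6.27 TPM to 13.2 and 11.6 TPM, 2.1-fold higher (1.01 ± 0.24, adjusted p = 0.00129), with no overlap of the groups. Isl2 was at 3.75, 4.31 and 5.35 TPM untreated and 5.2 and 4.46 TPM with auxin, overlapping groups with a log2 difference of 0.11 ± 0.31 SE (adjusted p = 0.788). Which cells lost Lhx4 and Lhx3 is not shown by bulk RNA. The V2 interneuron genes also fell there, with 6 of 7 lower and 1 higher (median -2.18), and their part was not tested.

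Mir218-2 had 30, 27 and 30 reads (92.3, 95.5 and 95.7 TPM) untreated and 0 reads in both auxin libraries, at least 17.8-fold lower against a floor of 3 reads over the group, or 5.31 TPM. Slit3, the gene that contains it, kept 26.7% of its untreated level (41.3 against 155 TPM), 1.89 lower on the log2 scale. A single read of Mir218-2 is worth 2.94 to 6.72 TPM in NPC, so this gene is coarsely measured.

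The untreated SUZ12 line was close to the untagged line in these genes. None of the 8 members was called between them (0.814% of tested genes called), with adjusted p from 0.173 to 1, and 1 member was called with voom, Phox2a, at a log2 difference of -0.28. The fall with auxin was tested against the untagged line's own response as well, because auxin is present there without a degron. In the untagged NPC 0 members were called and limma called 0% of tested genes, with 16 called by voom and 1180 genes below 0.05 before adjustment. Phox2a was nevertheless lower in every untagged auxin library, at 107, 90.3 and 103 TPM against 124, 136 and 123 TPM (-0.35 ± 0.08, adjusted p = 0.379). Isl1 (-0.23, adjusted p = 0.493) and Lhx4 (-0.29, adjusted p = 0.649) had no overlap between those groups either, with the auxin libraries lower. Beyond the untagged response, the SUZ12 effect was called for 7 members, 6 lower and Mnx1 higher, with 43.5% of all genes called. Without SUZ12 NPC auxin replicate 1, Mnx1 missed the threshold there (0.97, adjusted p = 0.0527).

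**Figure D2:**
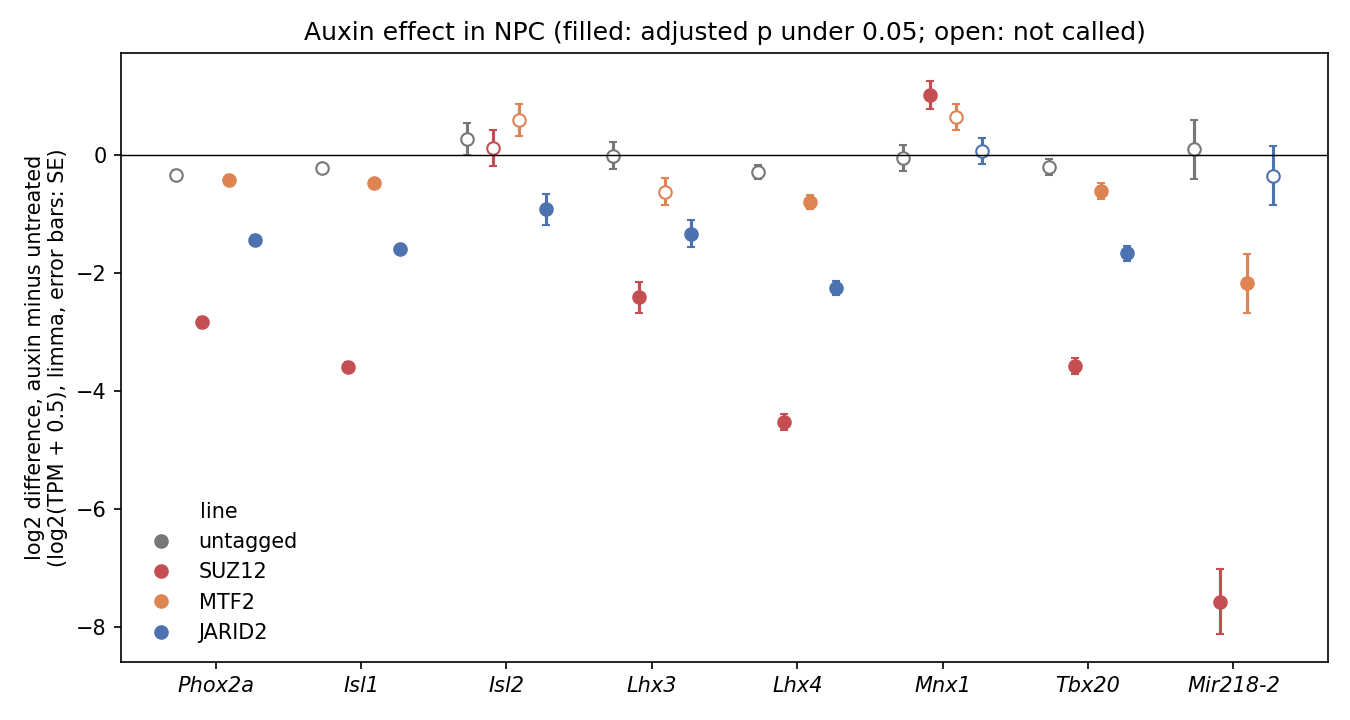
Log2 difference with auxin against untreated in NPC (vertical axis, limma on log2(TPM + 0.5), error bars are SE) for the 8 members in 4 lines, filled where called and open where not. Isl1 sits at -3.59 in the SUZ12 line, -1.60 in the JARID2 line, -0.49 in the MTF2 line and -0.23 in the untagged line.

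Auxin in the JARID2 line also lowered most of the list. In JARID2 NPC with auxin 6 members were called lower and 0 higher, where 25% of tested genes were called, with a members' median of -1.39 against -0.04 over all genes. Isl1 went from 114, 93.4 and 102 TPM to 32.1, 32.6 and 36.6 TPM (3.06-fold lower, -1.60 ± 0.06, adjusted p = 1.51e-13). Phox2a went from 89.1, 91.6 and 82.1 TPM to 33.6, 29.8 and 31.9 TPM (2.76-fold lower) and Tbx20 from 22.2, 19.6 and 18.7 TPM to 5.99, 5.04 and 7.06 TPM (3.35-fold lower). Neither gene had overlapping groups.

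Lhx4 again had the largest fold among the called members of the JARID2 line, from 13.7, 11.8 and 12.1 TPM to 2.81, 1.61 and 2.35 TPM (5.56-fold lower, -2.26 ± 0.12, adjusted p = 1.1e-11). Lhx3 fell from 2.13, 1.45 and 2.9 TPM to 0.364, 0.405 and 0.885 TPM, on 9 reads in all with auxin (ratio of pooled levels 3.89, exact interval 1.83 to 9.19). Isl2 fell from 1.26, 1.59 and 2.57 TPM to 0.381, 0.849 and 0.866 TPM (-0.93 ± 0.27, adjusted p = 0.0156), a call lost in the fit to those groups alone (adjusted p = 0.0798), without JARID2 NPC untreated replicate 3 (0.0927) and without auxin replicate 1 (0.0854). Mnx1 was at 7.66, 8.25 and 5.36 TPM untreated and 7.56, 7.02 and 7.35 TPM with auxin (0.06 ± 0.22, adjusted p = 0.885). Mir218-2 had 30 reads untreated and 24 with auxin (ratio 1.25, exact interval 0.706 to 2.23), a fall or rise of modest size not being detectable at that depth.

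The untreated JARID2 line already differed from the untagged line, before auxin was added. There 5 members were lower and 0 higher (23.8% of genes called): the differences were -1.35 for Lhx3, -1.32 for Lhx4, -0.95 for Tbx20, -0.67 for Isl1 and -0.54 for Phox2a on the log2 scale. The pan-neuronal sum, over 10 genes described further on, was 2596 TPM there against 4660 TPM in untreated untagged NPC, and 6 pluripotency genes summed to 62.8 to 75.2 against 19.9 to 23.2 TPM. Their part in these differences was not tested. Mir218-2 averaged 42.4 against 81.5 TPM (-0.92 ± 0.50, adjusted p = 0.209), and was called lower with voom (adjusted p = 0.0316) and in a fit to those groups alone (0.0463). The auxin effect beyond the untagged response was called lower for Phox2a, Isl1, Lhx3, Lhx4 and Tbx20 (9.04% of genes called), and Isl2 missed the threshold (-1.20 ± 0.39, adjusted p = 0.0568). Isl2 passed without untagged NPC untreated replicate 1 (adjusted p = 0.0174) or JARID2 NPC untreated replicate 1 (0.0414), with a pseudocount of 0.1 (0.0367), with voom (0.0496) and, at the threshold, with the filter of 5 TPM (0.05 rounded). Between the untreated lines Isl2 passed without untagged replicate 3 (adjusted p = 0.0273), and Mnx1, higher by 0.56 in the JARID2 line (adjusted p = 0.0657), passed without untagged replicate 2 (0.0314) or JARID2 replicate 3 (0.0275) and with a block on the library name numbers (0.0498).

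In the MTF2 line the falls of the coding members were under 1 on the log2 scale. With auxin 5 members were called lower and 0 higher where 8.14% of tested genes were called, and the members' median was -0.56 against 0.03 over all genes. Isl1 went from 124, 128 and 131 TPM to 92.0, 87.5 and 92.0 TPM (1.41-fold lower, -0.49 ± 0.06, adjusted p = 4.51e-05). Phox2a (-0.43), Tbx20 (-0.62) and Lhx4 (-0.81) also fell, without overlap of their groups. Isl2 (0.58 ± 0.27, adjusted p = 0.216), Lhx3 (-0.63 ± 0.23, adjusted p = 0.0993) and Mnx1 (0.63 ± 0.22, adjusted p = 0.0787) did not pass. Mnx1 would pass without MTF2 NPC untreated replicate 2 (adjusted p = 0.0369) or auxin replicate 1 (0.0449). Beyond the untagged response no member was called (1.4% of genes called, members' adjusted p from 0.132 to 0.806), while voom called 3, Lhx4 (-0.58), Tbx20 (-0.47) and Mir218-2 (-2.25).

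Mir218-2 had the largest fold in the MTF2 line. It had 18, 12 and 16 reads (76.6, 77.6 and 80.3 TPM) untreated and 1, 5 and 5 reads (4.93, 27.9 and 33.6 TPM) with auxin, 3.77-fold lower in pooled level (exact interval 1.92 to 8.07). The limma difference was -2.18 ± 0.50 (adjusted p = 0.0131). That value turns on the library with 1 read: without MTF2 NPC auxin replicate 1 it was -1.34 (adjusted p = 0.00909), and in a fit to those groups alone it was not called (adjusted p = 0.247). The untreated MTF2 line differed from the untagged line in 4 members (8.76% of genes called), with Mnx1 higher by 0.97 and Phox2a, Isl1 and Tbx20 lower, at -0.49, -0.36 and -0.44. Tbx20 was no longer called there without any 1 of the 3 untagged untreated libraries, MTF2 untreated replicate 2 or MTF2 untreated replicate 3 (adjusted p from 0.0552 to 0.116), nor with no filter (0.0579), and voom also called Lhx4 lower (-0.31, adjusted p = 0.00298).

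Slit3 had the smaller fold in the SUZ12 and MTF2 lines. The ratio of Mir218-2 to Slit3 TPM averaged 0.611 ± 0.0281 (SD, n = 3) in untreated SUZ12 NPC and was 0 in both auxin libraries (exact permutation p = 0.2, two-sided). In the MTF2 line it was 0.563 ± 0.00406 untreated and 0.203 ± 0.15 with auxin (n = 3 each, exact permutation p = 0.1), without overlap. In the JARID2 line it lay the other way, also without overlap, at 0.317 ± 0.0522 untreated and 0.501 ± 0.176 with auxin (n = 3 each, exact permutation p = 0.1), and in the untagged line 0.533 ± 0.0928 and 0.681 ± 0.167 (exact permutation p = 0.2). The smallest p these group sizes allow is 0.1 for 3 against 3 and 0.2 for 3 against 2, so none could pass 0.05. Slit3 itself changed by -1.89 in the SUZ12 line, -0.98 in the JARID2 line, -0.28 in the MTF2 line and -0.25 in the untagged line (adjusted p = 0.578).

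**Figure D3:**
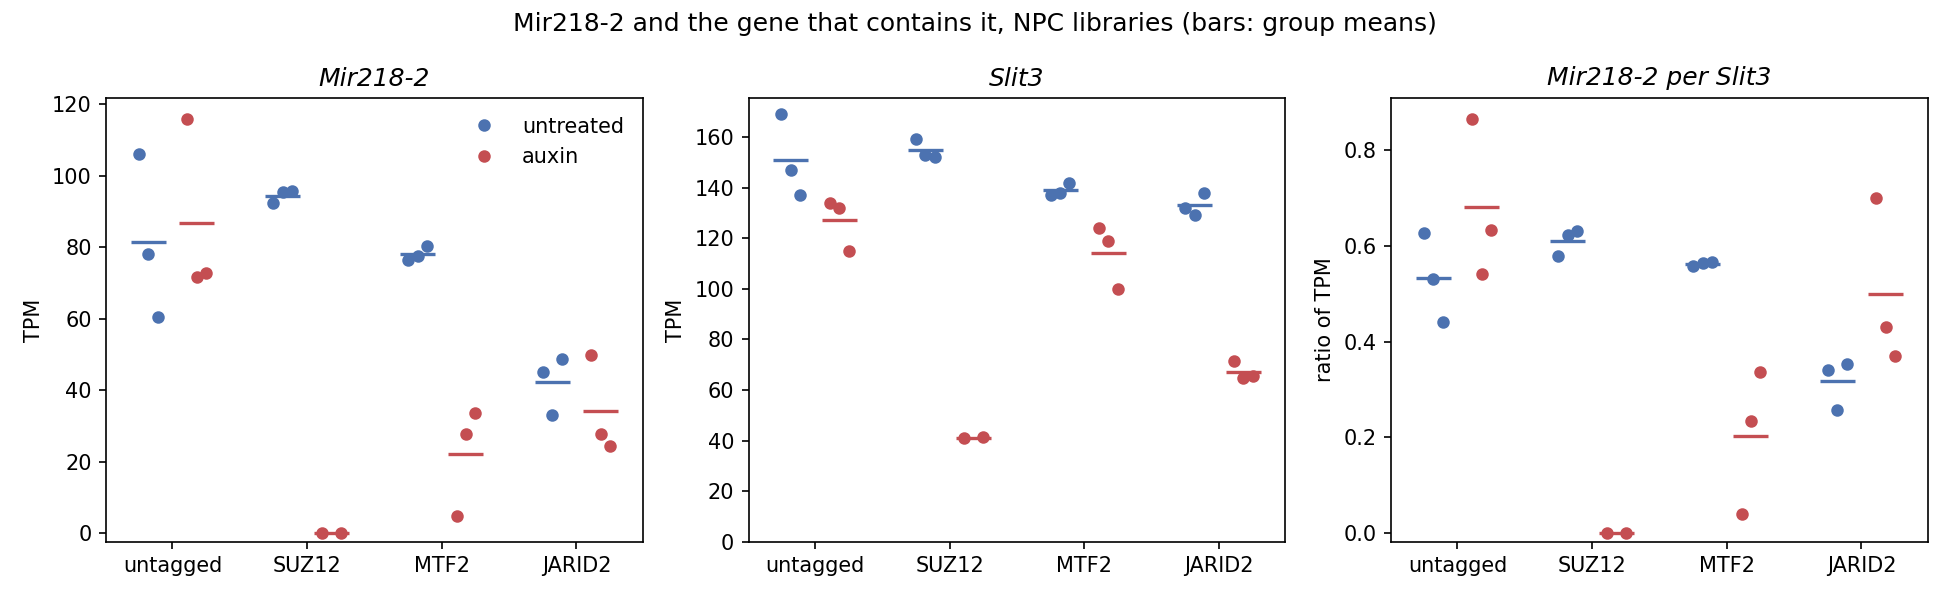
Mir218-2 TPM, Slit3 TPM and their ratio (vertical axes) in the NPC libraries by line, untreated in blue and auxin in red, with group means as bars. Both SUZ12 auxin libraries lie at 0 for Mir218-2 while Slit3 is at 41.1 and 41.4 TPM there.

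The size of the fall differed between the lines by direct test. Between SUZ12 and MTF2, the auxin effect was lower in SUZ12 for 6 members (43% of genes called). Between SUZ12 and JARID2 it differed for 7 members, 6 lower and Mnx1 higher (31.1% of genes called), and Isl2 was not called (1.04 ± 0.41 SE, adjusted p = 0.0601). Isl2 was called there with a pseudocount of 0.1 (1.39, adjusted p = 0.042), median-of-ratios scaling (1.14, 0.044) and voom (1.52, 0.0198), and without JARID2 untreated replicate 1 (1.22, 0.036). Of the SUZ12 against JARID2 calls, Lhx3 was lost without SUZ12 untreated replicate 2, SUZ12 auxin replicate 2, JARID2 untreated replicate 2 or JARID2 auxin replicate 3 (adjusted p from 0.0521 to 0.0777), and also with voom (0.246), a pseudocount of 0.1 (0.0735) and the compared groups alone (0.0519). Mnx1 was lost without any 1 of SUZ12 untreated replicates 1 and 2, SUZ12 auxin replicates 1 and 2, JARID2 untreated replicates 1 and 2 and JARID2 auxin replicate 2 (adjusted p from 0.0535 to 0.115), and with no filter (0.0516). Between MTF2 and JARID2 it was higher in MTF2 for Phox2a, Isl1, Isl2, Lhx4 and Tbx20 (9.64% of genes called). Mir218-2 was not called there (-1.81 ± 0.70, adjusted p = 0.123) unless MTF2 auxin replicate 3 was left out (0.0437). The SUZ12 values in these comparisons share the SUZ12 libraries, and the MTF2 and JARID2 values their own, so the comparisons are not independent of each other.

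Across the 8 NPC groups the lowest levels of the members that fell in the SUZ12 line lay in the SUZ12 or JARID2 auxin groups, but their order was not the same throughout. Isl1 was highest in untreated SUZ12 (171 TPM) and untreated untagged NPC (164 TPM), whose ranges overlapped, then untagged with auxin (140), untreated MTF2 (127), untreated JARID2 (103), MTF2 with auxin (90.5), JARID2 with auxin (33.8) and SUZ12 with auxin (13.7), each next pair without overlap. For Phox2a the untreated untagged group was highest (128 TPM) and the ranges of untreated SUZ12 (107), untagged with auxin (100), untreated MTF2 (90.7) and untreated JARID2 (87.6) overlapped neighbour to neighbour, above MTF2 with auxin (67.1), JARID2 with auxin (31.8) and SUZ12 with auxin (14.5). Lhx4 ended with MTF2 auxin (14.9), untreated JARID2 (12.5, overlapping it), JARID2 auxin (2.26) and SUZ12 auxin (0.923). Tbx20 ended with JARID2 auxin (6.03) and SUZ12 auxin (3.49), without overlap. For Lhx3, JARID2 with auxin (0.551) was the lowest group, overlapping SUZ12 with auxin (0.776). Mir218-2 had another order, with MTF2 auxin (22.2) below untreated JARID2 (42.4) and JARID2 auxin (34.1), each overlapping its neighbour, and above SUZ12 auxin at 0. Mnx1 was lowest in untagged NPC (4.71 untreated, 4.42 with auxin, overlapping) and highest in MTF2 with auxin (15.2), which overlapped SUZ12 with auxin (12.4). Isl2 was highest in MTF2 with auxin (6.3) and lowest in JARID2 with auxin (0.699), with overlap between all neighbours but the last.

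Over the 23 NPC libraries, log2 levels of Isl1 and Phox2a had a Pearson r of 0.99, Isl1 and Lhx4 0.98, and Isl1 and Tbx20 0.98. Mnx1 ran against the falling members with r from -0.39 to -0.55, and Isl2 had r of 0.23 with Isl1 and 0.17 with Phox2a. These points share libraries, lines and treatments, and the values are descriptions only. The genes nearest to Isl1 in pattern among 10597 searched were Elavl4, Adcyap1r1 and Zbtb18 (each 0.994), and those nearest to Lhx4 were Epb41, Galnt9 and Akap6 (up to 0.995). The nearest to Phox2a were Igdcc3 (0.984), Zbtb18 and Elavl4, to Tbx20 Cntn2 (0.991), Adcyap1r1 and Vat1l, and to Lhx3 the proneural gene Neurog1 (0.967), Rhbdl3 and Stmn3. Isl2 was nearest to Maged2 (0.911), Mnx1 to Foxf2 (0.870) and Mir218-2 to Fgfr3 (0.943).

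Pan-neuronal genes fell too, 10 of 10 in SUZ12 NPC (56.9% of tested genes called), 10 of 10 in JARID2 NPC (25%) and 6 of 10 in MTF2 NPC (8.14%). These 10 genes, which include Tubb3 and Elavl4, summed to 4595 TPM in untreated SUZ12 NPC and 442 TPM with auxin, 9.61% of the untreated sum. In the JARID2 line the sum kept 30.1%, in the MTF2 line 71.2% and in the untagged line 86% of its level. Isl1 kept 8.05% in SUZ12, 32.7% in JARID2, 71% in MTF2 and 85.4% in untagged NPC, and Tbx20 7.49%, 29.9%, 64.2% and 86.9%. Lhx4 kept less than the neuronal sum in all of these lines, at 2.85%, 18%, 56.1% and 81.4%. Markers of undifferentiated cells moved with this: the 6 pluripotency genes summed to 12.3 to 19.1 TPM untreated and 621 to 629 TPM with auxin in SUZ12 NPC, and to 62.8 to 75.2 and 177 to 194 TPM in JARID2 NPC. Cardiac mesoderm genes summed to 17.9 to 21.6 TPM untreated and 122 to 123 TPM with auxin in SUZ12 NPC. The 6 neural progenitor genes summed to 4090 to 4108 TPM untreated and 1726 to 1745 TPM with auxin there, with 6 lower. In JARID2 NPC these 6 summed to 3818 to 3987 and 2736 to 2836 TPM, with 4 lower. In MTF2 NPC their sums overlapped, at 4214 to 4497 and 4234 to 4515 TPM, with 2 lower. The part of all these lists in the members' falls was not tested.

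Set per 1000 TPM of the pan-neuronal sum, a scale chosen after seeing the data, the picture for the falling members changed. In SUZ12 NPC, Isl1 was 37.2 ± 0.267 (SD, n = 3) untreated and 31.3 ± 4.17 (n = 2) with auxin, and Lhx4 7.06 ± 0.332 and 2.1 ± 0.253 (n = 3 and 2, exact permutation p = 0.2 for each, the smallest possible). Phox2a was above its untreated level there, at 142%. In JARID2 NPC Lhx4 stood at 59.9% of its untreated value and in MTF2 NPC at 78.8% (exact permutation p = 0.1 for each, n = 3 and 3, the smallest possible), while Isl1 stood at 108% and 99.8%, with overlapping groups. Mnx1 was at 2195% in SUZ12, 338% in JARID2 and 222% in MTF2 NPC on this scale, against 210%, 103% and 158% in TPM. Any gene that falls less than the neuronal sum rises on this scale. Isl2 was at 1130% in SUZ12 and Mir218-2 at 273% in JARID2 NPC, so the rise is not particular to Mnx1. None of these groups overlapped, at the smallest possible exact permutation p (0.2 in SUZ12, 0.1 in JARID2 and MTF2).

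**Figure D4:**
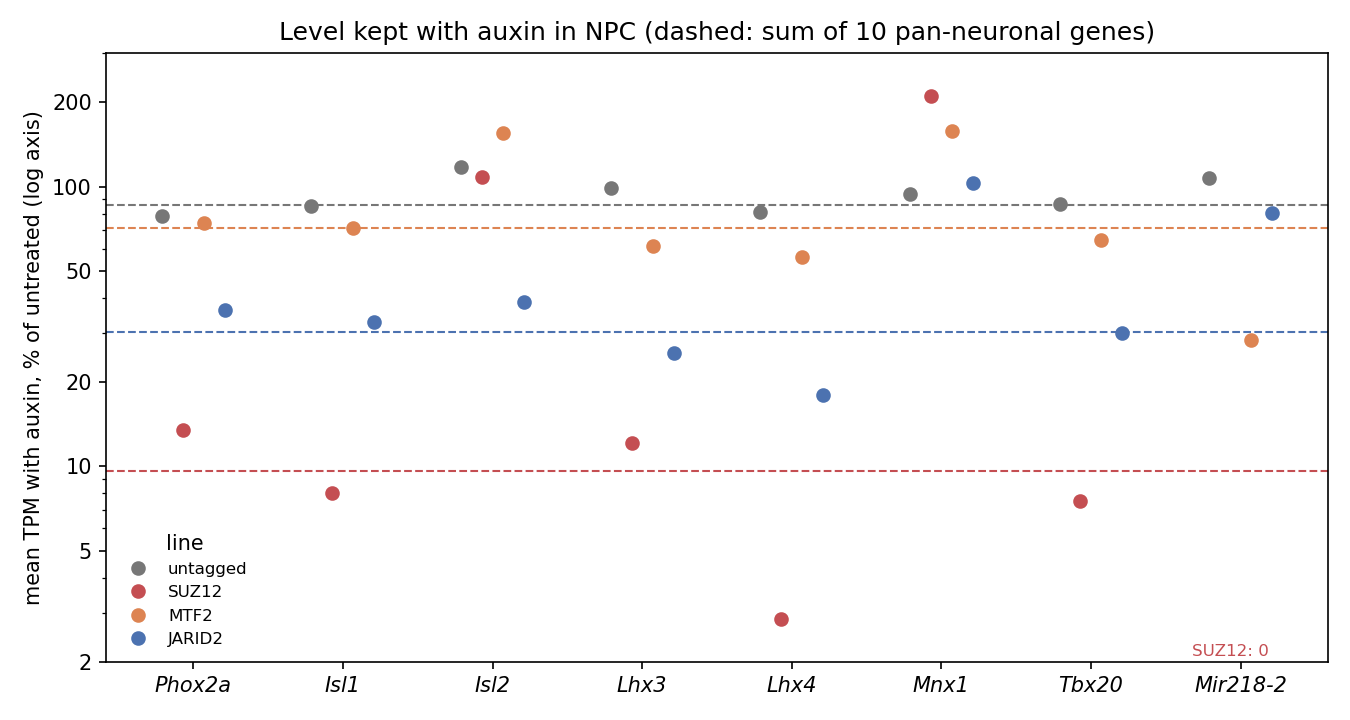
Mean TPM with auxin as a percentage of the untreated mean in NPC (vertical log axis) for the 8 members in 4 lines, with dashed lines for the sum of 10 pan-neuronal genes. Isl1 and Tbx20 lie near the line of their own colour in each line, Lhx4 below it and Mnx1 above it; Mir218-2 in SUZ12 is at 0 and is written in.

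Most related lists had more members lower than higher in the tagged lines with auxin. Lists were chosen with earlier results of these data known, so their counts describe and do not support. Of all 16469 tested genes, 5437 fell and 3931 rose in SUZ12 NPC, 2588 fell and 1528 rose in JARID2 NPC, and 512 fell and 828 rose in MTF2 NPC, so the share called was 56.9%, 25% and 8.14%. Of 15 tested neuronal differentiation partners, 15 fell in SUZ12 NPC, 13 in JARID2 NPC and 8 in MTF2 NPC, with medians of -2.88, -1.36 and -0.48. They include Neurog1, a proneural factor (-2.70 in SUZ12), and Nhlh1 (-4.05). Of 13 tested motor neuron effector genes, 11 fell in SUZ12 and in JARID2 NPC and 4 in MTF2 NPC (medians -1.48 in SUZ12 and -0.18 in MTF2). Among them Slc18a3 went from 82.7 to 10.1 TPM in the SUZ12 line and Chat from 6.51 to 0.427 TPM. Cxcr4, the chemokine receptor that guides migrating motor neurons, went from 197 to 29.5 TPM there.

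Of 10 genes listed as ventral progenitor factors, not all of them factors of motor neuron progenitors, 8 fell in SUZ12 NPC and 0 rose (median -1.31). Nkx6-1 went from 658 to 47.5 TPM, Nkx2-2 from 84.3 to 6.49 TPM and Olig2, needed for somatic motor neurons, from 35.8 to 13.9 TPM. Between untagged ESC and NPC, however, Olig2 was higher by only 0.25 on the log2 scale (limma, adjusted p = 0.0066), where the list's median was 4.50. In JARID2 NPC 5 of them fell and 2 rose, and in MTF2 NPC 4 fell. Of 9 visceral and branchial genes, 7 fell in SUZ12 and in JARID2 NPC and 4 in MTF2 NPC (medians -1.31, -0.86 and -0.30), among them Hoxb2, a hindbrain patterning gene, from 115 to 48.3 TPM in SUZ12 NPC. Of 7 motor column genes, which mark spinal motor columns, 4 rose and 1 fell in SUZ12 NPC, with Aldh1a2, a retinoic acid enzyme, from 0.103 to 8.77 TPM and Etv4 from 4.69 to 57.1 TPM. That is 5 of 7 called where 56.9% of all genes were. Both named genes were lower in untagged NPC than in ESC (Aldh1a2 -3.77, Etv4 -3.59), and they rose in SUZ12 NPC beside the pluripotency genes given above, whose part was not tested. Of 5 genes reported as miR-218 targets, 2 fell and 1 rose in SUZ12 NPC, 3 fell in JARID2 NPC, and 2 fell and 1 rose in MTF2 NPC. In SUZ12 NPC, 3 of 5 is near the 56.9% of all genes called and says nothing about these targets. The 1 that rose in SUZ12 NPC was Bcl11a, from 0.143 to 1.57 TPM.

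In ESC after 12 hours of auxin 1 member was called in 1 line. Only 4 of 8 passed the filter there (Phox2a, Isl1, Mnx1 and Tbx20). None was called in the untagged (0.212% of tested genes called), MTF2 (1.09%) or JARID2 line (0.298%), with adjusted p of 0.616 or more. In the SUZ12 line 1 was called, against 6.83% of genes. Tbx20 was at 0.257, 0.236 and 0.306 TPM untreated and 1.1, 0.858 and 0.888 TPM with auxin, groups that do not overlap (0.92 ± 0.26, adjusted p = 0.0343). It rests on 6 to 18 reads a library. Tbx20 reached 1 TPM in only 2 of the 24 ESC libraries, SUZ12 auxin replicate 1 and MTF2 auxin replicate 2 (1.43 TPM), so it passed the filter through auxin libraries where it was high. The call was lost without any 1 of the 3 untreated libraries or auxin replicates 2 and 3 (adjusted p from 0.068 to 0.122). Without auxin replicate 1, in the compared groups alone and with the filter of 5 TPM the gene was not tested.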

How the data were processed

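Polyadenylated RNA of 47 libraries was used as the TPM values the authors deposited, for 35856 symbols. The submitters' processing notes name STAR 2.6.1d and the build mm10. For the counting tool and annotation, the entry is "not given in the sources used here". TPM steps gave whole reads for 100% of the 27296 symbols above 0 (tolerance 0.001), 3.24 to 8.71 M reads a library (M, 1000000), and 0 pairs of libraries were identical.

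Groups came from the labels. The filter asked for 1 TPM in 2 or more of a stage's libraries. The model was limma 3.58.1 in R 4.3.3 (lmFit and robust eBayes with a trend) on log2(TPM + 0.5), the 8 groups of a stage together and all 16 groups for the stage comparison, with adjustment over all tested genes in each of 18 comparisons. Folds on this scale understate the change of low genes. The fit was also run on simulated NPC libraries with planted changes. Every gene had the same spread setting there, so that run is not offered as a check of these data. Ratios used Python 3.11.15 and scipy 1.17.1 with exact tests. Coordinates are from GENCODE M21, and sequences from RefSeq on GRCm38.p6.

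The members and gene lists were chosen with earlier results of these data known. Named genes were the members, Slit3, Slit2, Mir218-1, the 3 targeted genes, up to 4 genes of each list with the smallest p, and the 3 genes most like each member over 23 NPC libraries. Outside this rule, and named after their values were seen, are Chat and Olig2 in SUZ12 NPC, Olig2 in the stage comparison, the levels of Chat and Slc18a3 in untreated untagged NPC, and the marker genes at 0 or given as examples of a marker list. Some genes that the rule names are left out here. Alternatives were other pseudocounts (0.1, 1), no filter or 5 TPM, median-of-ratios scaling, the compared groups alone, a replicate block, voom on recovered reads, and each library left out.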

Additional observations from a re-analysis of the deposited data

Results flagged for a closer look

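The auxin effects listed here differed between lines by limma's test of the difference itself (adjusted p under 0.05), as log2 differences in NPC. No group holds the 4 libraries that the check for stray samples needs. Against the untagged response, the SUZ12 effect differed by -3.36 for Isl1, -2.49 for Phox2a, -3.38 for Tbx20, -2.40 for Lhx3, -4.24 for Lhx4, -7.66 for Mir218-2 and 1.06 for Mnx1. The JARID2 effect differed from the untagged one by -1.37 for Isl1, -1.10 for Phox2a, -1.47 for Tbx20, -1.32 for Lhx3 and -1.97 for Lhx4.

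The SUZ12 effect minus the MTF2 effect was -3.10 for Isl1, -2.41 for Phox2a, -2.96 for Tbx20, -1.79 for Lhx3, -3.72 for Lhx4 and -5.39 for Mir218-2. The SUZ12 effect minus the JARID2 effect was -1.99 for Isl1, -1.39 for Phox2a, -1.91 for Tbx20, -1.09 for Lhx3, -2.27 for Lhx4, -7.21 for Mir218-2 and 0.94 for Mnx1. The MTF2 effect minus the JARID2 effect was 1.11 for Isl1, 1.02 for Phox2a, 1.05 for Tbx20, 1.45 for Lhx4 and 1.51 for Isl2. The values for Mir218-2 in the SUZ12 line depend on the pseudocount, because its auxin libraries have 0 reads.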

How the results depend on the processing

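Of 302 counts of members under other settings, 292 were within 1.5 times the reported count. The exceptions follow. In SUZ12 ESC the reported call, 1, became 0 in the fit to the compared groups alone, 0 with the 5 TPM filter and 0 to 0 with each library left out; Tbx20 was filtered out untested in the first 2 and without auxin replicate 1. For MTF2 NPC beyond untagged NPC, voom called 3 members against 0, and for untreated SUZ12 against untagged NPC 1 against 0. Of 65 called member differences, 576 of 583 values under other settings and 518 of 542 with a library left out stayed called, and 0 changed sign. Of 1033 values for differences not called, 36 had the other sign and none of them was called. Where a library left an arm with 1 sample, that sample was assumed to vary like the other groups.

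The replicate block changed no count by 1.5 times: the SUZ12 NPC count stayed at 7 and the JARID2 NPC count at 6 with the block from titles or library names. Same-numbered libraries did not deviate together, with correlations from -0.033 to 0.085 for the numbers in the titles, so the numbers were not taken as pairs.

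Per 1000 TPM of the pan-neuronal sum, a scale chosen after seeing the data, some members that had fallen averaged above 100% of their untreated level: Phox2a at 142% and Lhx3 at 127% in SUZ12, Phox2a at 104% in MTF2, and Phox2a at 120%, Isl1 at 108% and Isl2 at 128% in JARID2 NPC. Of these, Phox2a in SUZ12 alone had groups that did not overlap. The cause was not tested. Median-of-ratios scaling moved the median of all genes by over 0.1 in the stage comparison (0.283 to 0), SUZ12 NPC (-0.098 to 0.024), SUZ12 beyond untagged NPC (-0.076 to 0.031) and SUZ12 minus MTF2 NPC (-0.136 to 0.028). Depth limits Mir218-2, Lhx3, Mnx1 and Isl2, with 337, 516, 573 and 630 reads over the NPC libraries.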

Other observations

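Several members also serve in tissues outside the nervous system, among them Isl1 in heart and pituitary, Lhx3 and Lhx4 in pituitary and Mnx1 in pancreas. In SUZ12 NPC the 5 pituitary genes summed to 1.14 to 2.33 TPM untreated and 33.9 to 36.9 TPM with auxin, where 3 of 3 tested genes rose, while Pou1f1 was listed at 0 in both groups. The 9 cardiac mesoderm genes had 7 of 7 tested members rise there. Of all 16469 tested genes 56.9% were called in SUZ12 NPC, 3931 higher and 5437 lower, as the background to the counts in this paragraph. The 7 endoderm and pancreas genes summed to 25.4 to 31.9 TPM untreated and 16.2 to 18.3 TPM with auxin, a sum lowered by Foxa1 (-1.04), while the other 3 tested members rose: Sox17 (1.32), Ins2 (1.36) and Neurog3 (1.27). Ins1 and Gcg were listed at 0 in both groups and Pdx1 at 0 untreated. The part of these cells in the Mnx1 rise was not tested. V2 interneuron genes summed to 68.5 to 72.7 TPM untreated and 40.2 to 44.8 TPM with auxin, with 6 of 7 lower and 1 higher.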
